A study of Mus musculus with 4 samples.

Results

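Amelogenesis imperfecta is an inherited failure of enamel formation, and besides the genes of the enamel matrix it is caused by genes whose products act inside, or at the surface of, the cells that build the tooth. The 7 genes of that kind described here are Fam83h, Fam20a, Fam20c, Acp4, Wdr72, Slc24a4 and Relt, found by their symbols among the 32285 genes of the count tables. Their transcripts were counted in 4 single-cell libraries from wild-type C57BL/6J mice (genotype label WTB6), 1 from the maxillary and 1 from the mandibular molar of embryos at E15.5 (the labels give E15) and 1 from each jaw of newborns at postnatal day 1 (P1). Every library pooled 6 tooth organs dissected by hand. No group of 1 stage and 1 jaw has a replicate, and no test between groups was made. All barcodes with at least 1000 UMIs (unique molecular identifiers, 1 per captured transcript) were used. They were 10073 of 10885 barcodes at E15.5 in the maxilla, 6911 of 7947 at E15.5 in the mandible and 17040 of 18707 at P1 in the maxilla. In the P1 mandibular library, 16810 of 19401 barcodes had that many UMIs, and 6690 of them were dropped because they also occurred in the P1 maxillary library, which left 10120. These barcodes hold 109134519, 85932640, 127598083 and 115121025 UMIs in the same order.

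Ameloblasts are the epithelial cells that secrete the enamel matrix and later pump ions and remove protein as the enamel hardens, and odontoblasts are the mesenchymal cells that face them and secrete dentin. The products of the 7 genes have unlike roles. FAM20C is a kinase of the secretory pathway that phosphorylates secreted matrix proteins, and FAM20A is its partner, a pseudokinase that raises its activity. FAM83H is a scaffold protein that binds casein kinase 1 and keratin filaments, ACP4 is a membrane-bound acid phosphatase, and RELT is a receptor of the tumor necrosis factor receptor superfamily. WDR72 takes part in vesicle traffic of ameloblasts that resorb matrix, and SLC24A4 is a potassium-dependent sodium and calcium exchanger of maturing enamel.

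One property of the P1 libraries bears on everything reported about them. They share 7131 barcodes, which is 38.1% of the maxillary and 36.8% of the mandibular barcodes, while every other pair of libraries shares between 28 and 70. The shared barcodes have a median of 12088 UMIs in the maxillary library and 2870 in the mandibular one, and the log2 ratio of the 2 counts of a barcode has a median of 2.07, with 90% of barcodes between 2.0 and 2.18. The 7 genes follow it: their UMIs in shared barcodes are between 3.70 (Slc24a4) and 4.78 (Acp4) times as many in the maxillary as in the mandibular library, against 4.15 times for all genes. Shared barcodes make up 98.7% of the ameloblast-like cells of the P1 maxillary library (224 of 227), 97.7% of its odontoblast/osteoblast-like cells (300 of 307) and 99.0% of its dental papilla-like cells, but 16.0% of its mesenchyme-like cells, 2.10% of its neuron-like cells and 1.01% of its chondrocyte-like cells. Which jaw the shared cells came from cannot be told apart from the counts. The P1 maxillary values below are therefore a set of dental cells distinct by barcode from the mandibular set but of uncertain jaw, and the main comparisons are given without the shared barcodes too. The ameloblast-like class has no such counterpart, so its maxillary values, its bins and the gene lists read in it rest on shared barcodes.

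**Figure D1:**
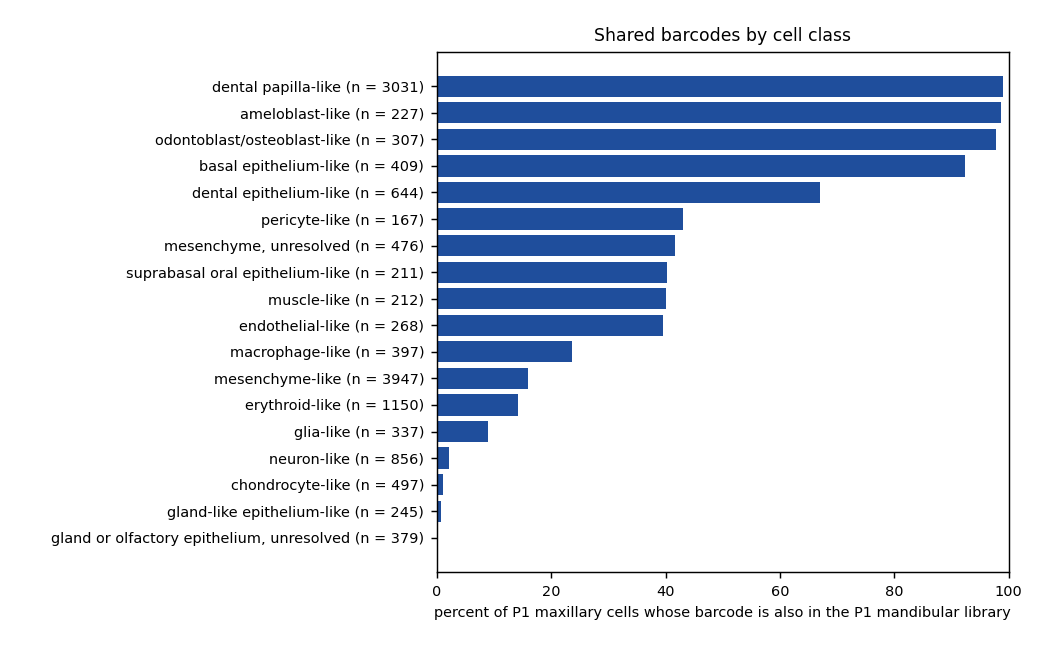
Share of P1 maxillary cells (x axis, percent) in each cell class (y axis, with the number of cells) whose barcode also occurs in the P1 mandibular library. Bars of the dental classes reach above 90%, apart from the dental epithelium-like class at 66.9%, and those of the neuron-like, chondrocyte-like and gland or olfactory classes lie below 3%.

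To place the transcripts in cell types, 8395, 6059, 13760 and 8158 cells (in the order given above) were kept after removal of probable doublets and of cells with a high share of mitochondrial UMIs, and each library was clustered with the 7 genes left out, so that none of them decided a class. Classes were named from marker genes. The ameloblast-like class at P1 was 1 cluster in each library, with 227 maxillary and 426 mandibular cells. Amelx, the main enamel matrix gene, stood at 27818 CPM (UMIs of the gene per 1000000 UMIs of the class) in the former and 64327 in the latter, and Klk4 and Amtn, genes of the later maturation stage, were at or near 0 in both. Red cell RNA was present in these cells too. The erythroid markers had a summed level of 554 CPM in the maxillary ameloblast-like cells, against 1224 in the other epithelium-like cells, and of 7248 against 2707 in the mandibular ones, led by Hbb-bs at 369 and 3786 CPM. Its part in the results below was not tested, beyond the level of the 7 genes in erythroid-like cells, where at most 0.664% of the P1 cells had a UMI of any 1 of them. The class called odontoblast/osteoblast-like was led by Bglap, Dmp1 and Phex, with 307 maxillary and 141 mandibular cells. Its extent depended on the cell filters: it had 146 maxillary cells with a minimum of 500 UMIs and 667 when cells beyond 3 median absolute deviations in genes were removed too, and 319 mandibular cells with a minimum of 2000 UMIs and 437 with doublets kept. Its markers do not separate the 2 cell types: Dspp, the main dentin matrix gene, stood at 342 and 2431 CPM in it, and Ibsp, a bone gene, at 91.0 and 54.1. Epithelium-like cells other than ameloblast-like ones numbered 1264 and 939 at P1. At E15.5 there were 635 epithelium-like cells in the maxilla but 104 in the mandible, all in 1 cluster. In the P1 mandibular library 1210 cells stayed unnamed, 14.8% of the total.

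Levels are the UMIs of a gene summed over the cells of a class, in CPM. Their errors are exact Poisson 95% intervals, and those of ratios and shares are exact binomial (Clopper-Pearson) 95% intervals. Both cover counting error alone and say nothing of the spread between animals. Levels are compared between cells and not between genes, since 3′ tags are not scaled by length. To read the counts against all genes, a gene was called higher or lower when its levels were at least 2-fold apart and it had at least 50 UMIs in both groups together. The plot of levels by class gives each gene in the main classes.

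**Figure D2:**
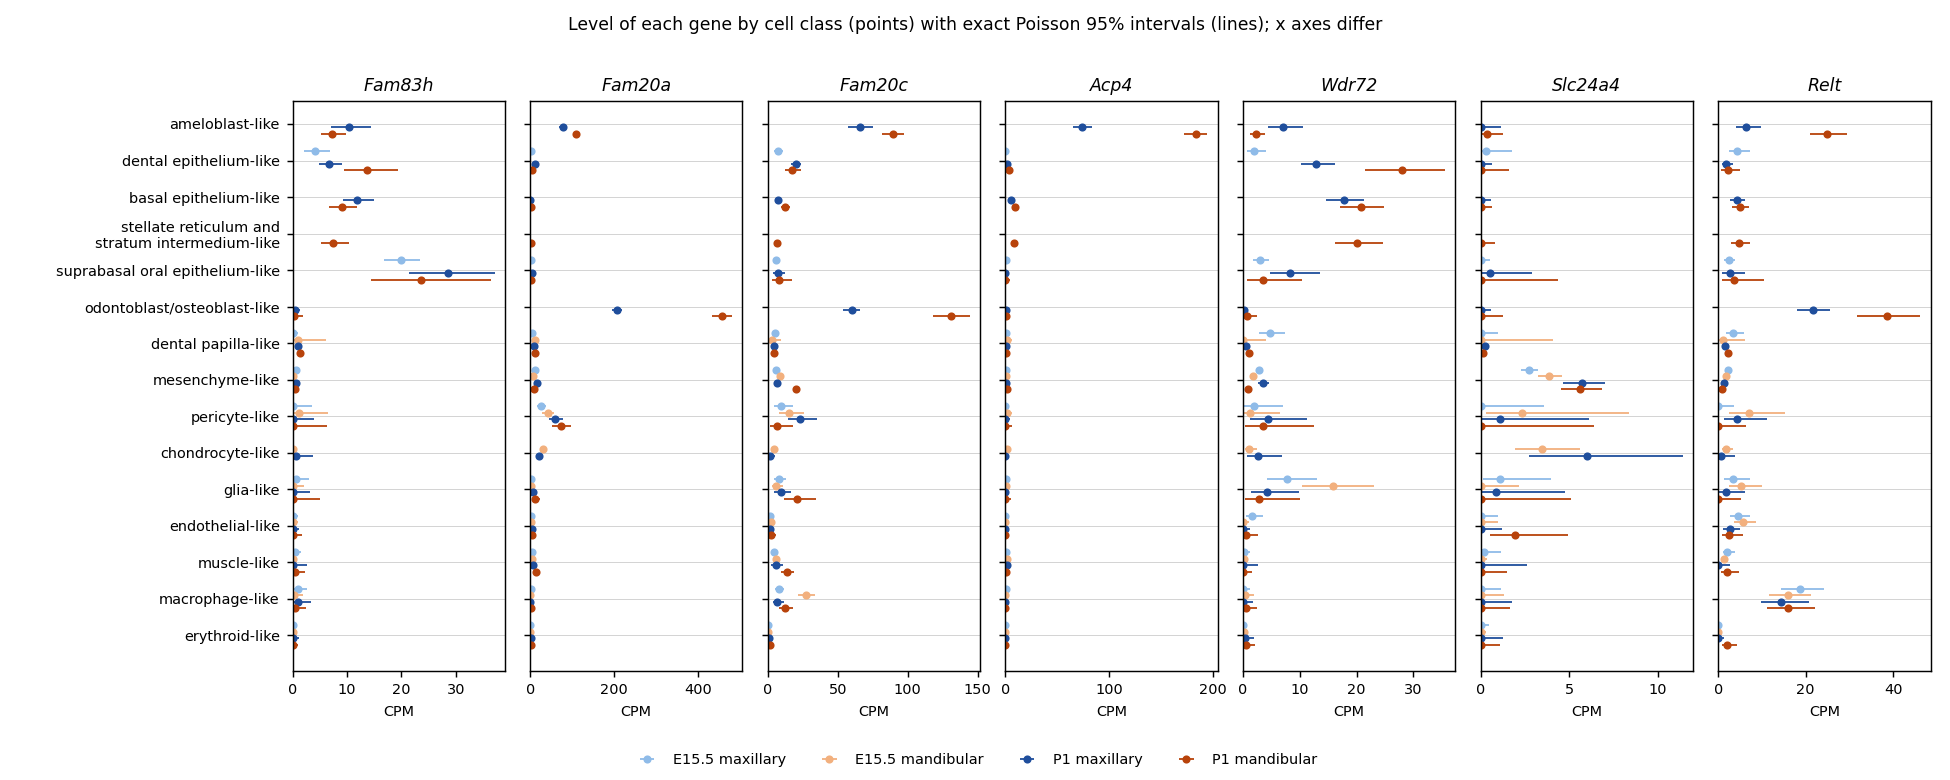
Level of each gene (x axis, CPM; the axes differ between genes) in the main cell classes (y axis) of the 4 libraries, with points for the level and lines for exact Poisson 95% intervals. Acp4 stands out in the ameloblast-like class (73.8 and 183), Fam20a and Relt in the odontoblast/osteoblast-like class (207 and 457 for Fam20a, 21.6 and 38.5 for Relt), Fam20c in both, and Fam83h in the suprabasal oral epithelium-like class (28.5 and 23.6 at P1).

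Acp4, the acid phosphatase, had most of its transcripts in ameloblast-like cells at P1. It lies at chr7:44252148-44257378 on the minus strand (mm10). On the opposite strand 2410002F23Rik, which was counted, overlaps its 3′ end, and Gm28496, which is not in the count table, spans it. In the P1 mandibular library its level was 183 (95% interval 172 to 195) in ameloblast-like cells and 7.15 in the other epithelium-like cells, a log2 ratio of 4.68 (4.38 to 5.0). In the P1 maxillary library it was 73.8 (64.8 to 83.6) against 2.99, a log2 ratio of 4.62 (4.15 to 5.13). The intervals of the 2 levels do not overlap in either library, while those of the 2 ratios do. With coarser clusters (Leiden resolution 0.5) the maxillary class took in 589 cells, its Acp4 level was 29.3 against 3.96, and the log2 ratio of 2.89 (2.35 to 3.47) lay below the mandibular one of 4.38 (4.13 to 4.65). The ameloblast-like cells, 5.22% of the mandibular and 1.65% of the maxillary cells, held 83.7% (81.6 to 85.7) and 74.5% (69.5 to 79.2) of the Acp4 UMIs. An Acp4 UMI was found in 70.9% of mandibular and 46.3% of maxillary ameloblast-like cells, and in 7.03% and 2.61% of the other epithelium-like cells. After thinning every cell to 2000 UMIs, which left out 10 and 2 ameloblast-like cells, the shares were 24.5% and 12.9%, against 1.33% and 0.287%. No erythroid-like cell, a type that should lack the gene, had an Acp4 UMI at P1 (0 of 753 mandibular and 0 of 1150 maxillary cells, which allows a share of cells with a UMI of up to 0.398% and 0.261%). Without the shared barcodes 3 of the 227 maxillary ameloblast-like cells are left, too few to give a level.

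Fam20a and Fam20c, the kinase pair, were high in ameloblast-like cells and in the odontoblast/osteoblast-like class. Fam20a (chr11:109669749-109722279, minus strand) stood at 110 (102 to 119) in mandibular ameloblast-like cells and 2.93 in the other epithelium-like cells, a log2 ratio of 5.23 (4.76 to 5.74), and at 78.0 against 5.77 in the maxillary ones, a log2 ratio of 3.76 (3.39 to 4.14). Fam20c (chr5:138754514-138810077, plus strand) stood at 89.2 against 11.1, a log2 ratio of 3.01 (2.74 to 3.29), and at 66.2 against 12.7, a log2 ratio of 2.38 (2.09 to 2.68). For Fam20a the mandibular ratio lies above the maxillary one with no overlap of the intervals, and the same holds for Fam20c. That order did not hold with coarser clusters, where Fam20a had 3.44 in the mandible and 4.44 in the maxilla, and Fam20c 2.32 and 2.42. In the odontoblast/osteoblast-like class Fam20a was at its highest of all named classes, 457 (433 to 482) in the mandibular and 207 (196 to 218) in the maxillary library, against 19.4 and 11.2 in the other mesenchyme-like cells. The log2 ratios were 4.56 (4.44 to 4.68) and 4.2 (4.07 to 4.34). The 6 ameloblast markers, led by Sp6, summed to 1259 CPM in the mandibular and 489 in the maxillary odontoblast/osteoblast-like class. In the other mesenchyme-like cells they summed to 279 and 134. Their part in the Fam20a, Fam20c and Relt levels of the odontoblast/osteoblast-like class was not tested. That class held 41.1% of the mandibular and 52.5% of the maxillary Fam20a UMIs with 1.73% and 2.23% of the cells. Fam20c stood there at 131 (118 to 144) and 59.8 (54.0 to 66.2), with log2 ratios of 3.47 (3.28 to 3.66) and 3.54 (3.32 to 3.76). Its level was above that of ameloblast-like cells in the mandibular library, with no overlap of intervals, and did not differ beyond counting error in the maxillary one. These levels moved with the extent of the class. In the mandible, Fam20a was at 247 and Fam20c at 67.7 with doublets kept, and at 277 and 77.3 with a minimum of 2000 UMIs. Under both settings Fam20c lay below the level of ameloblast-like cells, which was 86.6 with doublets kept and 89.5 with a minimum of 2000 UMIs. In the maxilla, Fam20a was at 301 with a minimum of 500 UMIs and at 112 with the filter on genes. Under these filters the log2 ratio to the other mesenchyme-like cells stayed at or above 3.36 for Fam20a and 2.62 for Fam20c. A Fam20a UMI was found in 97.9% of mandibular odontoblast/osteoblast-like cells and a Fam20c UMI in 82.3%, and thinned to 2000 UMIs in 58.2% and 24.1%. When the shared barcodes were dropped from the P1 maxillary library before clustering, no ameloblast-like cluster was found and 25 cells were odontoblast/osteoblast-like, with 5 Fam20a UMIs (33.5 CPM) and 3 Fam20c UMIs (20.1 CPM), and the log2 ratios to the other mesenchyme-like cells were 1.37 (-0.28 to 2.62) and 2.43 (0.097 to 4.08).

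Outside these classes Fam20a was also found in pericyte-like cells, the mural cells of small vessels, at 25.3, 41.8, 60.2 and 72.9 in the E15.5 maxillary, E15.5 mandibular, P1 maxillary and P1 mandibular libraries. Several mesenchyme-like clusters with skeletal genes were also high. The E15.5 maxillary cluster led by Tnn stood at 44.5, and at E15.5 in the mandible the chondrocyte-like cluster, whose leading gene Ibsp belongs to bone, at 31.1 and the Mmp13 and Spp1 cluster at 30.7. At P1 in the mandible, 226 cells led by Ifitm5, Mamdc2 and Smpd3 stood at 103, and at 24.9 for Fam20c. Fam20c stood at 9.73, 15.1, 23.0 and 6.94 in pericyte-like cells in the same order, against 5.63, 8.79, 10.4 and 18.6 in mesenchyme-like cells, and was also found in E15.5 mandibular macrophage-like cells (27.1, 21.3 to 34.0) and in P1 maxillary neuron-like cells (25.4, 19.8 to 32.1).

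Relt, the receptor, followed the same pair of hard-tissue classes and added the blood line. It lies at chr7:100845847-100863446 on the minus strand. Its level in odontoblast/osteoblast-like cells was 38.5 (31.8 to 46.3) in the mandibular and 21.6 (18.1 to 25.5) in the maxillary library, against 2.81 and 1.43 in the other mesenchyme-like cells, log2 ratios of 3.78 (3.41 to 4.15) and 3.92 (3.52 to 4.33). With the filter on genes the maxillary class had 10.9 and a log2 ratio of 2.87. Once the shared barcodes were dropped, the maxillary ratio rested on 1 UMI in the class, at 2.30 (-3.1 to 5.0). In ameloblast-like cells it was 25.0 (21.1 to 29.4) against 4.29 in the mandible, a log2 ratio of 2.54 (2.09 to 3.01), and 6.37 (3.95 to 9.74) against 2.99 in the maxilla, a log2 ratio of 1.09 (0.26 to 1.88). The maxillary ratio rests on 21 and 42 UMIs and became -0.04 with coarser clusters. In leukocytes, clusters led by S100a8 or S100a9, genes of neutrophils, stood at 35.5 at E15.5 in the maxilla, 29.4 at P1 in the maxilla and 47.1 at P1 in the mandible, where the cluster stayed unnamed, and macrophage-like classes between 14.5 and 18.8 in the 4 libraries. In P1 mandibular erythroid-like cells Relt stood at 2.02 (0.814 to 4.17), the highest such background of the 7 genes.

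Counted together, 4 of the 6 genes with enough UMIs were higher in ameloblast-like than in other epithelium-like cells in each of the P1 libraries (Acp4, Fam20a, Fam20c and Relt), where 6.58% and 8.16% of all genes tested were. In both libraries 1 of the 6, Wdr72, was lower, where 22.9% and 28.1% of all genes were. Slc24a4 could not be compared, with at most 2 UMIs in each group. The median log2 ratio of the tested members was 1.74 and 2.78, against -0.32 and -0.44 for all genes tested. In odontoblast/osteoblast-like against other mesenchyme-like cells, 3 genes were higher in each library (Fam20a, Fam20c and Relt), of 6 tested in the maxilla and 5 in the mandible, where 6.24% and 8.55% of all genes tested were. Wdr72 and Slc24a4 were lower in both, where 29.9% and 32.5% of all genes were. Once the shared barcodes were dropped, 2 genes had enough UMIs in maxillary odontoblast/osteoblast-like cells, and 1 was called higher (Fam20a), where 10.7% of all genes were, and 0 lower, where 15.8% were. With cells thinned to 2000 UMIs, the genes higher in maxillary ameloblast-like cells were 2, and none was called lower in either class of either library. The share of all genes called was not counted at that depth. Thinning also lowers the UMIs that the 50-UMI limit counts, so a lost call does not by itself show a changed ratio. The plot of ratios at P1 shows that the same genes lie to the right in both libraries.

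**Figure D3:**
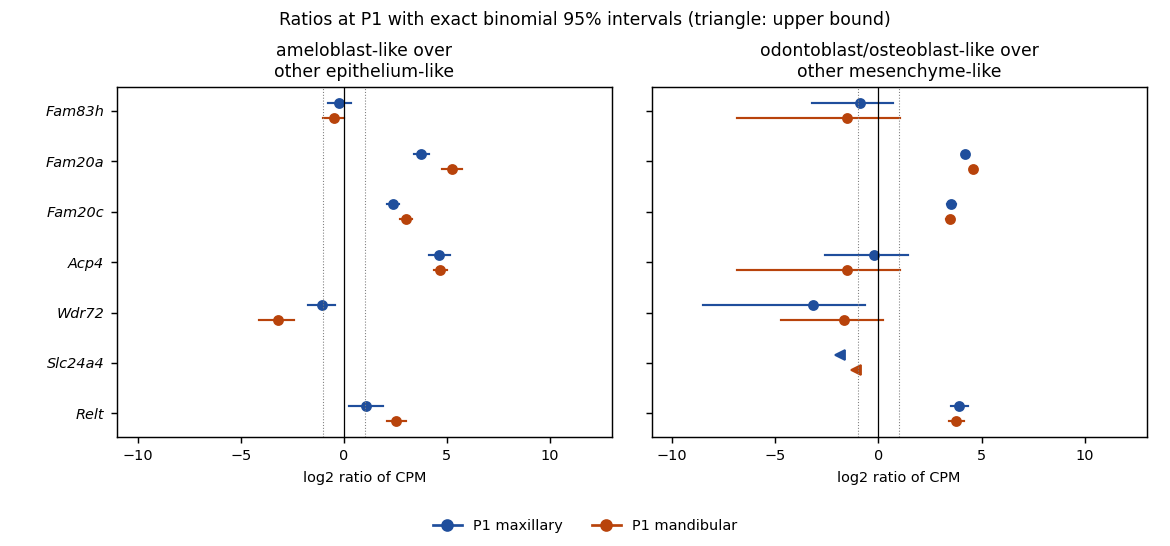
Log2 ratio of the level of each gene at P1 (x axis) in ameloblast-like over other epithelium-like cells (left) and in odontoblast/osteoblast-like over other mesenchyme-like cells (right), with exact binomial 95% intervals as lines, triangles for upper bounds where a group had no UMI, and dotted lines at a 2-fold difference. Fam20a, Fam20c and Relt lie to the right of 1 in both panels, Acp4 only in the left one, and Wdr72 to the left of -1 in both.

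Wdr72, the vesicle traffic gene (chr9:74110356-74283308, plus strand), had the reverse order within the epithelium. In the P1 mandibular library it stood at 2.26 in ameloblast-like cells (13 UMIs) and 20.7 in the other epithelium-like cells, a log2 ratio of -3.20 (-4.12 to -2.40), and in the P1 maxillary library at 6.98 (23 UMIs) and 14.4, a log2 ratio of -1.04 (-1.73 to -0.42). The interval of the maxillary ratio reaches above -1, and it was no longer at least 2-fold lower with doublets kept, with coarser clusters or with cells of at least 2000 UMIs. Its levels in the mandible were 27.9 in dental epithelium-like, 20.7 in basal epithelium-like and 20.1 in stellate reticulum and stratum intermedium-like cells, 3 classes whose intervals overlap. The cluster of mandibular dental epithelium-like cells led by Vwde, with 141 cells, had 32.7. In the maxilla the order was 25.4 in gland-like cells, 22.0 in the cluster led by Gstm1 and Cyp2a5, 17.7 in basal, 12.9 in dental epithelium-like and 8.30 in suprabasal oral epithelium-like cells. At E15.5 the glia-like cells were the highest named class in both jaws, with 7.72 (4.22 to 12.95) and 15.9 (10.5 to 23.1), on 14 UMIs in 3 of 162 cells and 27 UMIs in 5 of 101 cells. The maxillary interval overlaps that of dental papilla-like cells (4.71, 2.79 to 7.45). The epithelium-like cells stood at 2.61 and 2.83. In odontoblast/osteoblast-like cells there were 1 and 2 UMIs in all, log2 ratios to the other mesenchyme-like cells of -3.17 (-8.49 to -0.65) and -1.68 (-4.75 to 0.21), and the latter turned to 1.66 with doublets kept.

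Fam83h, the keratin scaffold, was an epithelial gene at both stages. It lies at chr15:76001093-76014336 on the minus strand and overlaps K230010J24Rik on the opposite strand. In epithelium-like cells its maxillary level was 14.98 at E15.5 and 11.6 at P1, and its mandibular level 12.9 and 9.34, while mesenchyme-like cells lay between 0.219 and 0.934. The suprabasal oral epithelium-like class, led by the keratin gene Krt13, was the highest named class wherever it was found, with 19.9 (16.7 to 23.4) at E15.5 in the maxilla, 28.5 (21.5 to 37.1) at P1 in the maxilla and 23.6 (14.4 to 36.5) at P1 in the mandible. Ameloblast-like cells had 10.3 (7.15 to 14.4) and 7.29 (5.25 to 9.85), with log2 ratios to the other epithelium-like cells of -0.21 (-0.79 to 0.33) and -0.49 (-1.02 to 0.02). Those intervals hold 0. With coarser clusters the maxillary ratio was -0.98 (-1.43 to -0.55), an interval below 0, and the mandibular one -0.47 (-0.99 to 0.02).

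Slc24a4, the exchanger (chr12:102128733-102267091, plus strand), had few transcripts in epithelium-like cells at these stages. In epithelium-like cells 1 UMI was found in each of the libraries apart from the P1 mandibular one, which had 2, and the levels lay between 0.0577 and 0.404 CPM. Of 227 maxillary and 426 mandibular ameloblast-like cells, 0 and 1 had a UMI, and the former allows a share of cells with a UMI of up to 1.32%, which is no limit on the cells that express the gene. All mesenchyme-like cells stood at 2.28, 3.91, 1.57 and 2.06 in the E15.5 maxillary, E15.5 mandibular, P1 maxillary and P1 mandibular libraries. The class named mesenchyme-like leaves out their dental papilla-like, odontoblast/osteoblast-like and unresolved cells. This class stood at 2.70, 3.87, 5.73 and 5.61 in the same 4 libraries. Chondrocyte-like cells, found in the first 3 of these, had 4.22 (0.51 to 15.2, on 2 UMIs), 3.43 (1.96 to 5.58) and 6.0 (2.74 to 11.4), not apart from the mesenchyme-like class beyond counting error. No UMI was found in the odontoblast/osteoblast-like cells, with 0 UMIs in both libraries against 103 and 106 in the other mesenchyme-like cells, so a level at least 3.64-fold lower in the maxilla and 2.16-fold lower in the mandible when 3 counts are taken as the limit for the class. The highest cluster of at least 50 cells was a P1 maxillary one. In 379 P1 maxillary cells led by Gstm1, Otx2os1, Aox2 and Cyp2a5, the last an enzyme gene known from the olfactory mucosa, Slc24a4 stood at 53.8 (43.9 to 65.3). Of its UMIs in the cells of that library, 45.2% were in the gland or olfactory classes and 43.1% in mesenchyme-like cells. No cell of that cluster has a shared barcode.

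Set against the mesenchyme as a whole, the genes split into epithelial, mesenchymal and shared ones. At E15.5 in the maxilla 1 of 7 tested genes was higher in epithelium-like than in mesenchyme-like cells, Fam83h (log2 4.64, 4.09 to 5.22), where 10.7% of all genes were, and 2 were lower, Fam20a (log2 -2.72) and Slc24a4 (log2 -4.56, -9.88 to -2.06, on 1 epithelial UMI), where 20.5% were. At E15.5 in the mandible 1 of 5 was higher, Relt (log2 1.32, 0.25 to 2.25), where 11.6% of all genes were, and Fam20a and Slc24a4 were again lower, on 1 epithelial UMI each, where 18.6% were. Fam83h had 32 and 8 UMIs there, too few to be counted, and a log2 ratio of 5.88 (4.74 to 7.21). At P1 in the maxilla 4 of 7 were higher, where 10.4% of all genes were: Acp4 (log2 4.91, 4.4 to 5.45), Fam83h (3.77), Wdr72 (3.31) and Fam20c (1.14). At P1 in the mandible the 4 higher genes, where 11% of all genes were, were Acp4 (log2 6.01, 5.6 to 6.46), Fam83h (3.32), Wdr72 (2.86) and Relt (1.12), and Fam20c had 0.90 (0.75 to 1.04). Slc24a4 was the 1 gene lower in both P1 libraries, where 22.5% and 21.2% of all genes were. Once the shared barcodes were dropped, 3 genes had enough UMIs in the P1 maxilla. None of them was called higher, where 8.95% of all genes were, and Fam20a (log2 -1.16) and Slc24a4 (-2.76) were lower, where 20.7% were. Fam83h had 29 and 6 UMIs there, too few to be counted, and a log2 ratio of 5.33 (4.03 to 6.88), and Fam20c was at 0.91 (-0.24 to 1.93). The ratio of Wdr72 turned to -0.17 on 3 and 28 UMIs, and Acp4 had 0 and 10 UMIs. With all barcodes Fam20a was below 0 in the 4 libraries, but at P1 its ratios of -0.62 and -0.33 were within 2-fold.

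Within the ameloblast-like class the genes differed along the order given by the matrix genes. The ameloblast-like cells of each P1 library were ordered by the share of their UMIs that came from Amelx, Ambn and Enam and cut into 4 equal bins, whose median share went from 0.051% to 7.14% in the maxilla and from 1.67% to 12.1% in the mandible. Acp4 was at 14.4, 33.4, 58.8 and 198 from the lowest to the highest bin in the maxilla and at 72.5, 119, 154 and 376 in the mandible, a log2 ratio of highest over lowest of 3.78 (2.94 to 4.77) and 2.37 (2.05 to 2.71). Relt was at 1.2, 1.15, 4.89 and 19.3 in the maxilla and at 12.4, 19.4, 28.9 and 37.6 in the mandible, log2 ratios of 4.01 (1.31 to 9.41) and 1.61 (0.76 to 2.54). The maxillary Relt ratio rests on 1 and 15 UMIs, too few to be counted. Fam20a was at 31.2 and 130 in the lowest and highest maxillary bins, a log2 ratio of 2.06, but at 105 and 138 in the mandibular ones, a log2 ratio of 0.39 (0.06 to 0.72). Counted by the 50-UMI limit, 2 of 3 genes were at least 2-fold higher in the top bin in the maxilla (Acp4 and Fam20a), where 3.25% of all genes were, and 2 of 4 in the mandible (Acp4 and Relt), where 2.13% were. None was lower, where 8.65% and 4.24% of all genes were. After thinning to 2000 UMIs the higher ones were 0 and 1. The share of all genes was not counted at that depth, and a call can be lost there through the 50-UMI limit alone. Fam20c had log2 ratios of 0.87 and 0.81. Wdr72 went the other way, from 9.60 to 2.58 and from 5.77 to 1.37, on so few UMIs that both intervals of the ratio include 0, and Fam83h had ratios of -0.58 and -0.68 whose intervals also include 0. Mmp20, the early enamel protease, was at 142 in the lowest and 1320 in the highest maxillary bin. The bins hold cells of 1 library each and are not replicates.

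**Figure D4:**
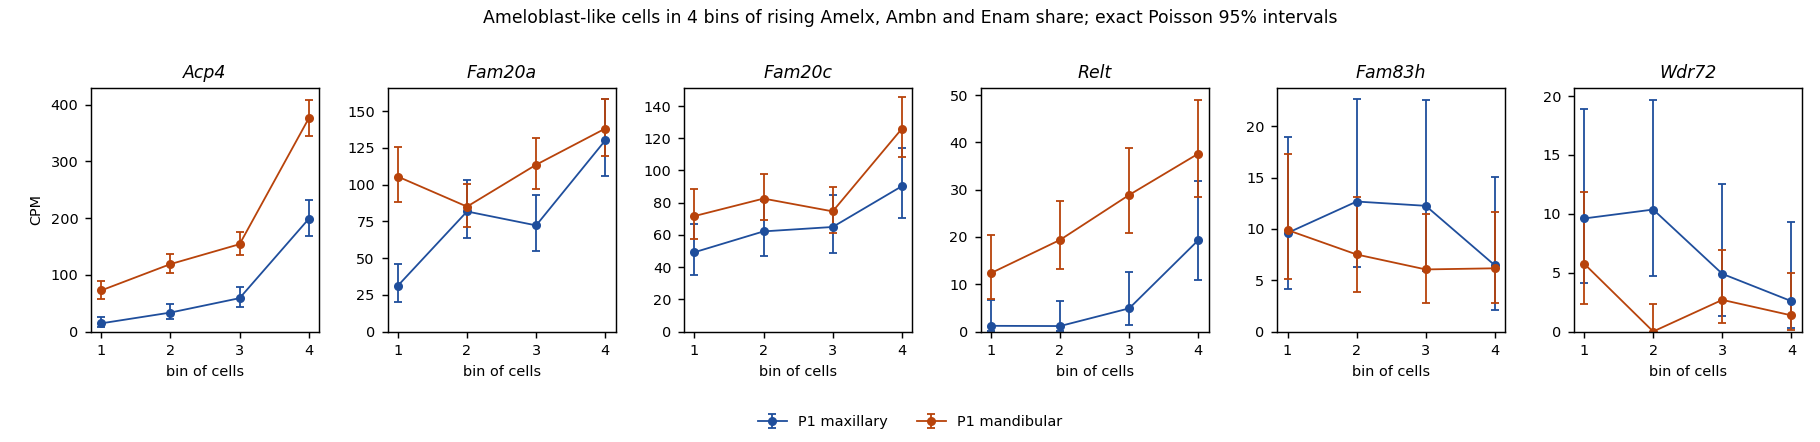
Level of 6 genes (y axis, CPM; the axes differ) in ameloblast-like cells of the P1 libraries, ordered by their share of Amelx, Ambn and Enam UMIs and cut into 4 bins of equal cell number (x axis, lowest to highest share), with exact Poisson 95% intervals as bars. Acp4 and Relt are highest in the last bin of both libraries, at 198 and 376 for Acp4, while Wdr72 and Fam83h have lower levels in the last bin than in the lowest one.

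For the genes that were higher in ameloblast-like cells in both libraries, the 120 bases before the start of the RefSeq transcript (GRCm38.p6) are shown, 5′ to 3′ on the strand of the gene, with capitals for a GC box, GGGCGG. A promoter entry was found for 5 of the 7 genes; Fam83h and Wdr72 had none. GENCODE places the first start of these genes further upstream, by 174 bases for Acp4, 567 for Fam20c, 41 for Fam20a and 33 for Relt, so that the Acp4 and Fam20c stretches lie wholly inside the gene as GENCODE gives it.
Acp4, chr7:44257205-44257324 (minus strand): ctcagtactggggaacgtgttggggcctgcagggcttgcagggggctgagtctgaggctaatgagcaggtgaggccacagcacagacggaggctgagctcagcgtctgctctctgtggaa
Fam20a, chr11:109722239-109722358 (minus strand): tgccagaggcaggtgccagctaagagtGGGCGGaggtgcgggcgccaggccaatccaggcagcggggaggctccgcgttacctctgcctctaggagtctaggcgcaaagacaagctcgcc
Fam20c, chr5:138754961-138755080 (plus strand): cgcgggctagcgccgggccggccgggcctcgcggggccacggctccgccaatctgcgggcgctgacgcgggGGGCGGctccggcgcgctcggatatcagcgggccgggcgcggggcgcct
Relt, chr7:100863414-100863533 (minus strand): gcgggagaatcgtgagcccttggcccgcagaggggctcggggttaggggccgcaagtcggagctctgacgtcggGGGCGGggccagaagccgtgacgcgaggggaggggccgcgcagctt
Over the 250 bases before the start, the share of G and C was 56.0% for Acp4, 61.2% for Fam20a, 67.6% for Relt and 81.2% for Fam20c, against a median of 52.4% over 32851 gene starts, 80% of which lie between 38.8% and 69.2%. Acp4 had 4 CG dinucleotides there, Fam20a 10, Relt 22 and Fam20c 41. Both strands of these windows were searched for 6 short words. The Runx word TGTGGT is found in 14.05% of all windows of this length, the homeobox core TAATTA in 4.84% and the GC box GGGCGG in 32.7%. The TATA box TATAAA is found in 12.4% of them, the AP-1 word TGANTCA in 6.75% and the E-box word CACGTG in 6.02%. Fam20a, Fam20c and Relt each held 1 GC box, at bases -93 to -88, -49 to -44 and -46 to -41 from the start, and Acp4 held none of the 6 words. The hits do not overlap another motif. A match is a description of letters, not of a bound site.

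Between the stages, the whole libraries were compared first. In CPM over all barcodes used, Acp4 was 4.72-fold higher at P1 than at E15.5 in the maxilla (74 and 408 UMIs) and 21.3-fold higher in the mandible (50 and 1430 UMIs). Fam20a was 3.31- and 4.53-fold higher and Fam20c 2.40- and 2.83-fold higher. Fam83h (1.22- and 4.86-fold), Wdr72 (1.50- and 2.89-fold) and Relt (1.08- and 2.29-fold) were at least 2-fold higher in the mandible only. Slc24a4 was 1.50-fold higher in the maxilla and 0.705 times its E15.5 level in the mandible. So 3 of 7 genes were at least 2-fold higher in the maxilla, where 11.6% of all genes were, and 6 of 7 in the mandible, where 14.1% were, and none was lower, where 4.4% and 4.2% were. These values mix a change per cell with the makeup of the dissected tissue, since epithelium-like cells were 7.56% and 10.8% of the maxillary and 1.72% and 16.7% of the mandibular cells. Without the shared barcodes the maxillary log2 ratio of Acp4 was -0.40, those of Fam20a and Fam20c were 0.59 and 0.68, and that of Slc24a4 was 2.24. Slc24a4 was then the 1 gene at least 2-fold higher, where 11% of all genes were, and none was lower, where 2.21% were.

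Within epithelium-like cells 4 of the 6 tested genes were higher at P1 in the maxilla, where 9.66% of all genes were, and 5 of 6 in the mandible, where 9.14% were. None was lower, where 9.16% and 7.85% of all genes were. Acp4 went from 0.677 (7 UMIs) to 16.4 in the maxilla, a log2 ratio of 4.60 (3.54 to 5.93), and from 1 UMI in 104 cells to 60.4 in the mandible, a ratio of 149 whose interval is wide (log2 4.74 to 12.53). Fam20a went from 1.55 to 19.5, a log2 ratio of 3.66 (2.93 to 4.48), and from 1 UMI to 35.4, a log2 ratio of 6.45 (3.97 to 11.76). Fam20c had log2 ratios of 1.86 (1.5 to 2.26) and 1.67 (1.11 to 2.28), and Wdr72 of 2.31 (1.73 to 2.95) and 2.42 (1.36 to 3.74). Relt was higher in the mandible, with 1.25 (0.38 to 2.27), and its maxillary ratio of 0.28 has an interval that includes 0. Fam83h, with -0.36 (-0.67 to -0.05) and -0.47 (-1.02 to 0.12), was the only tested gene below 0. Its highest class, the suprabasal oral epithelium-like one, made up 409 of the 635 maxillary epithelium-like cells at E15.5 and 211 of the 1491 at P1. Within that class its maxillary level was higher at P1, with intervals that overlap. The part of this makeup in the ratio was not tested. No ameloblast-like class was found at E15.5, so the P1 epithelium-like cells include that class and the E15.5 ones do not. The 6 ameloblast markers summed to 19.2 CPM in the maxillary epithelium-like cells of E15.5, with Enam, Mmp20 and Calb1 at 0, and to 378 in the mandibular ones, with Amelx at 244 and none at 0. In the P1 epithelium-like cells other than ameloblast-like ones the sums were 402 and 490. The part of these markers' cells in the ratios was not tested. With the ameloblast-like class left out, a choice made after seeing the data, 3 of 5 tested genes were higher at P1 in the maxilla, Fam20a (log2 1.90), Fam20c (1.01) and Wdr72 (2.46), where 8.38% of all genes were, and 2 of 5 in the mandible, Acp4 (4.14, 1.63 to 9.46) and Wdr72 (2.87), where 7.15% were. None was lower, where 7.8% and 4.76% were. Acp4 in the maxilla had a log2 ratio of 2.14 (0.98 to 3.54) on 42 and 7 UMIs. Fam20a in the mandible had 2.86 (0.30 to 8.20) on 39 UMIs and 1. Both had too few UMIs to be counted. Fam20c in the mandible then stood at 0.02 (-0.58 to 0.67) and Relt there at -0.05 (-0.998 to 1.03). With the shared barcodes dropped from both P1 libraries, 434 maxillary epithelium-like cells were left, with 8 Fam20a, 10 Fam20c, 0 Acp4 and 3 Wdr72 UMIs. Of the 2 genes with enough UMIs, none was then called higher, where 3% of all genes were, and none lower, where 4.31% were. The log2 ratio of Fam20c was 0.24 (-0.89 to 1.21), that of Fam20a 1.94 (0.51 to 3.25) on too few UMIs to be counted, and that of Wdr72 turned to -0.23 (-2.59 to 1.47).

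Within mesenchyme-like cells as a whole Fam20a was higher at P1 in both jaws, but the P1 cells include the odontoblast/osteoblast-like class, which was not found at E15.5. Its level went from 10.2 to 30.0 in the maxilla (log2 1.56, 1.42 to 1.70) and from 8.16 to 44.6 in the mandible (log2 2.45, 2.28 to 2.63). It was the only one of 7 genes called higher in the maxilla, where 8.67% of all genes were, and 1 of 4 in the mandible, where 10.5% were, with Fam83h (log2 2.09, from 8 and 48 UMIs), Relt (log2 1.45, 1.05 to 1.87) and Fam20c (log2 1.09, 0.90 to 1.27). Fam20c was at 0.88 (0.69 to 1.08) in the maxilla, just short of 2-fold. Wdr72 was lower in the maxilla (log2 -1.27, -1.66 to -0.89), where 6.23% of all genes were, and had 0.02 (-0.42 to 0.47) in the mandible, where no member and 4.72% of all genes were lower. Slc24a4 lay below 0 in both jaws, with -0.54 (-0.93 to -0.16) and -0.92 (-1.30 to -0.55), within 2-fold. Dental papilla-like cells were 267 of 4989 maxillary and 73 of 2508 mandibular mesenchyme-like cells at E15.5. At P1 they were 3031 of 7761 and 1798 of 3901. A Slc24a4 UMI was found in 0 of the 267, 0 of the 73 and 2 of the 1798. For the 3031 P1 maxillary cells the number was above 0 and is not given here. In the class named mesenchyme-like, which leaves out dental papilla-like cells, the Slc24a4 level was higher at P1 in both jaws. The part of this makeup in the ratios was not tested.

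With the odontoblast/osteoblast-like class left out, also a choice made after seeing the data, little of the higher Fam20a level in the maxilla was left. Fam20a stood at 11.2 against 10.2 at E15.5 in the maxilla, a log2 ratio of 0.14 (-0.02 to 0.31), and at 19.4 against 8.16 in the mandible, a log2 ratio of 1.25 (1.06 to 1.44). The 6 pericyte markers summed to 127 CPM at E15.5 and 249 at P1 in these maxillary cells. In the mandibular ones they summed to 120 and 203, and their part in the ratios was not tested. The classes left out were not alike in the 2 jaws. Ifitm5 and Mamdc2 were among the leading genes of the maxillary class. In the mandible the cluster led by Ifitm5, Mamdc2 and Smpd3, high in Fam20a as given above, was not in the class left out. The part of that cluster in the mandibular ratios was not tested. Fam20c had -0.13 (-0.36 to 0.10) in the maxilla and 0.42 (0.22 to 0.63) in the mandible. Relt had -0.72 (-1.13 to -0.31) and 0.66 (0.22 to 1.11), so that its maxillary ratio turned from 0.51. In the maxilla 0 of 7 genes were then called higher, where 8.43% of all genes were, and Wdr72 was lower (log2 -1.14), where 5.58% were. In the mandible 2 of 7 were higher, Fam20a and Fam83h (log2 2.15, 1.05 to 3.44), where 10.1% were, and 0 lower, where 4.34% were. Some markers of epithelial cells were also higher at P1 in these mandibular cells. From E15.5 to P1 the 6 ameloblast markers went from a sum of 5.20 CPM (5 with a UMI, Ambn the most abundant) to 279 (all 6, Amelx the most abundant). The dental epithelium markers went from 23.0 (led by Lef1) to 167 (led by Sp6) and the basal epithelium markers from 5.53 (led by Epcam) to 29.8 (led by Krt5). In the maxillary cells the ameloblast markers were higher at P1 too, from a sum of 6.19 CPM at E15.5. Fam83h had a log2 ratio of 0.56 (-0.09 to 1.24) there and was not called. The part of these markers' cells in the Fam83h ratios was not tested. With all classes kept but the shared barcodes dropped, the maxillary log2 ratios were 0.38 for Fam20a, -0.51 for Fam20c, -0.33 for Wdr72, -0.72 for Relt and 1.13 for Slc24a4. The 1 gene called higher was then Slc24a4 (56 and 125 UMIs), which had turned from -0.54, in place of Fam20a, where 2.04% of all genes were, and none of 6 was lower, where 2.27% were.

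**Figure D5:**
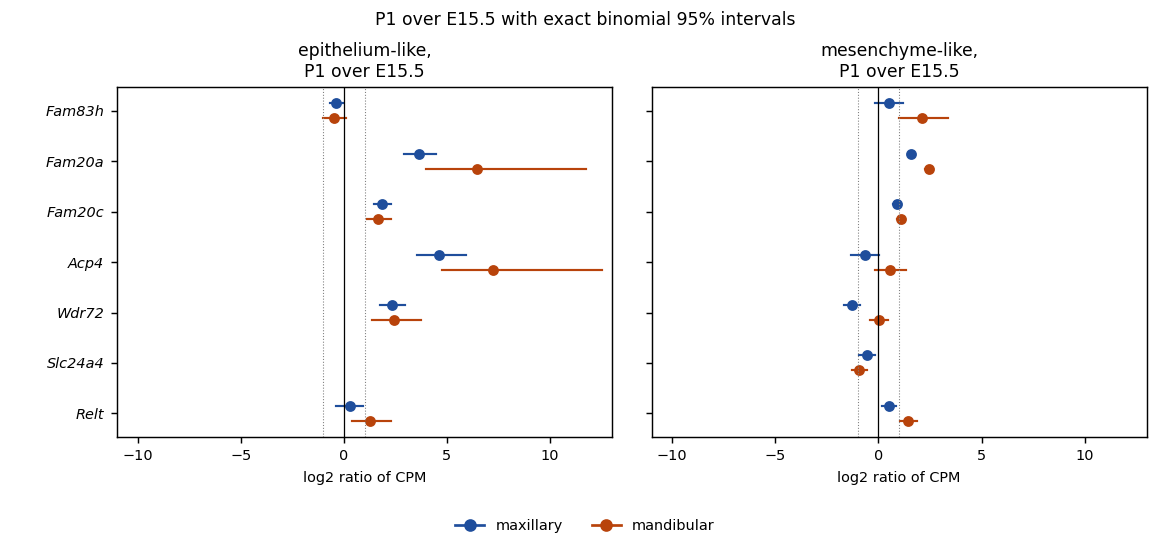
Log2 ratio of the level of each gene at P1 over E15.5 (x axis) within epithelium-like cells (left) and within mesenchyme-like cells (right) of each jaw, with exact binomial 95% intervals as lines and dotted lines at a 2-fold difference. The P1 groups include the ameloblast-like and odontoblast/osteoblast-like classes, which were not found at E15.5. Acp4, Fam20a, Fam20c and Wdr72 lie to the right of 1 in the epithelium of both jaws, and Fam20a in the mesenchyme of both, where without the odontoblast/osteoblast-like class the maxillary ratio was 0.14.

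Between the jaws at E15.5, where the libraries share 28 barcodes, no gene with enough UMIs to be tested was 2-fold apart. In mesenchyme-like cells 6 were tested and 0 were called, where 5.03% of all genes were higher and 3% lower in the maxilla, with log2 ratios of maxilla over mandible from -0.78 (Slc24a4) to 0.62 (Wdr72). In epithelium-like cells 2 genes had enough UMIs, Fam83h at 0.21 (-0.34 to 0.81) and Fam20c at -0.80 (-1.46 to -0.09), and 2.4% of all genes were higher and 3.53% lower. Of the genes with fewer UMIs, Fam83h was at 1.46 (0.32 to 2.79, from 33 and 8 UMIs) in mesenchyme-like cells and Fam20a at 1.94 (-0.75 to 7.33, from 16 UMIs and 1) in epithelium-like cells. At P1, Acp4 and Relt were lower in the maxillary epithelium-like cells, with log2 ratios of -1.88 (-2.07 to -1.69) and -1.54 (-1.97 to -1.12), 2 of 6 genes where 2.09% of all genes were lower and 1.25% higher. In the P1 mesenchyme-like cells 0 of 7 were called (2.5% of all genes higher and 3.69% lower), and all 7 ratios lay between -0.84 (Fam20c) and -0.13 (Fam83h). With the shared barcodes dropped, which left no ameloblast-like class in the maxilla, 1 of 6 genes was higher (Fam83h, log2 1.205) and 5 lower in the maxillary epithelium-like cells, where 5.81% of all genes were higher and 10.3% lower. In the mesenchyme-like cells 1 of 7 was higher (Slc24a4, log2 1.28) and 3 lower (Fam20a, Fam20c and Relt, at -1.75, -2.24 and -1.76), where 6.01% of all genes were higher and 10.1% lower. As most maxillary dental cells of P1 have shared barcodes, these are ratios between 2 sets of cells and not shown to be ratios between jaws. Amelx moved the same way as Acp4 and Relt, at -1.88 on the log2 scale between the same sets of epithelium-like cells. Ameloblast-like cells were 227 of the 1491 maxillary and 426 of the 1365 mandibular epithelium-like cells, and their part in this result was not tested.

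Other genes of the same biology were read from lists. Their counts stand beside 6.58% of all genes higher and 22.9% lower in maxillary ameloblast-like cells and 8.16% and 28.1% in mandibular ones. Since those genes took part in the clustering, their ratios between classes are descriptions. Of 8 genes of the enamel matrix and its proteases 5 were tested in ameloblast-like cells, and 4 were higher and 1 lower in each library, the lower one being Odam, an epithelial attachment gene (log2 -8.70 and -8.07). Of 18 other genes of inherited enamel defects, 15 were tested in each library, and 7 were higher and 1 lower in maxillary, 9 higher and 1 lower in mandibular ameloblast-like cells. The 4 furthest from 0 in the mandible were Itgb6, an integrin subunit (log2 2.42), Lamb3, a laminin chain (2.20), Rogdi (2.07) and Ltbp3, a TGF-beta binding protein (2.03), and in the maxilla Itgb6 had 1.93, Ltbp3 1.71 and Dlx3, a transcription factor, 1.36. Of 12 genes of ion handling in maturing enamel 9 were tested, and 2 were higher and 4 lower in the maxilla, 2 higher and 5 lower in the mandible. Slc8a1, a sodium and calcium exchanger, was at -5.48 and -4.85, Slc4a4, a bicarbonate cotransporter, at -3.92 and -4.59, Slc26a7, an anion exchanger, at -2.11 and -4.48, and Atp2b1, a calcium pump of the plasma membrane, at 2.39 and 3.17. Among the relatives of the 7 genes, 3 were higher and 3 lower of 18 tested in the maxilla and 3 higher and 1 lower of 17 in the mandible. Slc24a3, a relative of Slc24a4, was at 449 against 14.4 and at 786 against 5.27 CPM, log2 ratios of 4.96 and 7.22, and Acpp, a relative of Acp4, had 2.44 and 3.35. Of 10 partners and substrates, 1 was higher and 2 lower in each library, of 7 tested in the maxilla and 8 in the mandible. Dspp, which FAM20C is known to phosphorylate, was higher in ameloblast-like cells by 7.64 and 6.48 on the log2 scale. Dmp1 and Phex, markers of the odontoblast/osteoblast-like class, stood at 1.82 and 0.911 CPM in the maxillary and 5.21 and 1.74 in the mandibular ameloblast-like cells. Col1a1, a marker of odontoblasts and of mesenchyme, stood at 84.4 CPM in the maxillary ameloblast-like cells and 49.9 in the other epithelium-like cells. The part of RNA from odontoblasts in the Dspp ratios was not tested.

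In odontoblast/osteoblast-like cells, where 6.24% and 8.55% of all genes were higher and 29.9% and 32.5% lower, the same lists gave 4 higher and 3 lower of 12 ion handling genes in the maxilla and 4 higher and 4 lower of 11 in the mandible. Atp2b1 was at 2.05 and 3.20 and Slc8a3, another sodium and calcium exchanger, at 4.02 and 3.22, while Slc8a1 was at -5.81 and lower by at least 6.69, with no UMI in the mandibular class. Of the relatives, 1 was higher in each library (Acpp) and 6 of 15 and 4 of 14 tested were lower. Slc24a3, high in ameloblast-like cells, was at -4.15 and -1.45 here, and Acpp was at 4.14 and 6.23. Between the stages in epithelium-like cells, where 9.66% and 9.14% of all genes were higher and 9.16% and 7.85% lower, 5 of 9 ion handling genes were higher and 1 lower at P1 in the maxilla and 7 higher and 1 lower in the mandible, and Cftr, a chloride channel, had the highest ratio in both (log2 3.28 and 3.34). Of the other enamel defect genes 5 of 15 were higher and 2 lower in the maxilla and 5 higher and none lower in the mandible, with Sp6, a transcription factor, at 3.87 and 1.27, Dlx3 at 3.16 and 2.29, and Itgb6 at 3.10 and 3.31.

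Across the 119 clusters of at least 50 cells in the 4 libraries, each gene was compared with 10351 others by Pearson's r of log2(level + 10). The clusters share libraries, depth and, at P1, barcodes, so r is a description. Fam83h was most like Dsp, the desmosomal protein desmoplakin (r = 0.931), then Pkp3 (0.922) and Trim29 (0.919). Acp4 was most like the predicted genes Gm13010 (0.928) and Gm13264 (0.924) and then Enam, the enamel matrix gene (0.917). Relt was most like Pstpip1 (0.838), Dock2 (0.762) and AI467606 (0.750), the first 2 known from leukocytes. For the others the closest genes were less alike, with Cemip (0.719), Kazald1 (0.709) and Cgref1 (0.691) for Fam20a, March8 (0.751), Bicd1 (0.708) and Dspp (0.703) for Fam20c, Gm42722 (0.693), Sec14l3 (0.688) and Cdh26 (0.683) for Slc24a4 and Ptprf (0.613), Emp2 (0.588) and Ddr1 (0.584) for Wdr72. Between the 7 genes the highest r was that of Fam20a and Fam20c (0.660), followed by Acp4 and Fam20c (0.466) and by Fam83h and Wdr72 (0.457). The highest named class was the same in both P1 libraries for 4 of the 7 genes, Fam83h, Fam20a, Acp4 and Relt, and differed for Fam20c, Wdr72 and Slc24a4.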

How the data were processed

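Single-cell RNA sequencing (10x 3′ v3.1) was done on dissociated mouse molars, 1 library for each stage and jaw. The authors made the deposited counts with Cell Ranger 7.0.1 (file headers) on mm10, as named in the submitters' processing notes. The values are whole UMI counts per gene and barcode, not normalized, and of all deposited barcodes those with at least 1000 UMIs were used.

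From there each library was processed alone with scanpy 1.11.5. Cells beyond 3 median absolute deviations in mitochondrial share were removed, and so were the barcodes with the highest Scrublet scores, 0.8% for each 1000 barcodes. Cells were clustered (2000 variable genes, 40 principal components, 15 neighbours, Leiden resolution 1) without the 7 genes and without mitochondrial and ribosomal protein genes. Clusters were named from marker lists, at least 3 detected markers being required, and the score limits of that naming were set after the clusters were seen. Median UMIs per cell were 9887 and 11595 at E15.5 and 3950.5 and 11016 at P1 in the maxilla and mandible.

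Levels are CPM, the UMIs of a gene summed over a class per 1000000 UMIs of that class. With 1 library for each group no test was made. Intervals are exact 95% Poisson or binomial ones, and a count of 0 was set to 3 counts over the class for a bound. A gene entered the counts of higher and lower genes with at least 50 UMIs in both groups together and a ratio of at least 2. The calls of higher and lower genes were tested on simulated counts of the maxillary ameloblast-like comparison. That simulation did not cover the removal of doublets, the clustering or the naming of cells. The genes named are the 7 members, 4 measured genes of a list with the largest ratios in size in a comparison, and the 3 genes most like each member. Others were chosen after their values were seen, among them Slc24a3, Acpp, Dspp, Dmp1, Phex, Col1a1 and Mmp20. The lists hold the enamel matrix genes, other enamel defect genes, relatives, partners and substrates, and ion handling genes. The members and lists were chosen with earlier results of these data known. Gene positions are from the GENCODE annotation of the same build, GRCm38, and the stretches before gene starts from RefSeq. The alternatives changed the minimum of UMIs, the doublets, the cell filter, the resolution, the shared barcodes, the depth, the background and the fold. Some members of the lists are not reported here.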

Additional observations from a re-analysis of the deposited data

Results flagged for a closer look

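In mesenchyme-like cells the ratio of maxilla over mandible had opposite signs at the 2 stages for 2 of the 7 genes, with intervals on either side of 0. Fam20a had a log2 ratio of 0.3186 at E15.5 and of -0.5742 at P1, and Wdr72 of 0.6221 and -0.671. The difference between the stages was not tested, since each value comes from 1 library for each jaw. Of the 107 Wdr72 UMIs in P1 mandibular mesenchyme-like cells 28 came from 2 cells, and without those cells, a choice made after seeing the data, the P1 ratio was -0.23 (-0.69 to 0.23). With the shared barcodes dropped, the P1 ratios were -1.75 for Fam20a and 0.27 for Wdr72, so the opposite sign of Wdr72 was lost.

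The P1 mandibular barcodes that were left out because they are shared also hold UMIs of all 7 genes. They numbered 604 for Fam20a, 319 for Fam20c, 98 for Wdr72, 82 for Acp4, 78 for Relt, 68 for Fam83h and 20 for Slc24a4.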

How the results depend on the processing

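Each group is 1 library, so the intervals leave out the spread between animals, stage and jaw cannot be told apart from library, and a lower level cannot be told apart from fewer captured cells of a state. Ratios with few UMIs in 1 of the groups, among them those of Wdr72 in odontoblast/osteoblast-like cells (1 and 2 UMIs), are limited by depth. No paired analysis was made, since each group has 1 library and the stages could be paired by jaw alone. Leaving out a replicate was not possible, because no group has a replicate. Of the counts of genes and other summary results, 382 under the alternatives listed above and 101 under those chosen after seeing the data were within 1.5 times the reported value. In the same order 47 and 5 were not, and these follow. Of the other values, 1130 and 329 stayed the same by that measure, 248 and 29 moved, and 7 and 1 turned in sign. Those that turned are given below, and those that moved are not all listed. The cause of each change was not tested.

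With the shared barcodes dropped from both P1 libraries, the genes called in maxillary odontoblast/osteoblast-like cells went from 3 higher and 2 lower to 1 and 0, those higher at P1 in maxillary epithelium-like cells from 4 to 0, those lower at P1 in maxillary mesenchyme-like cells from 1 to 0, those higher in the whole maxillary library from 3 to 1, and those higher and lower in maxillary epithelium-like over mesenchyme-like cells of P1 from 4 and 1 to 0 and 2. The 1 gene higher at P1 in maxillary mesenchyme-like cells was Slc24a4 in place of Fam20a. In the P1 jaw comparison the epithelium-like cells went from 0 higher and 2 lower to 1 and 5 and the mesenchyme-like cells from 0 and 0 to 1 and 3, and the genes with the same highest class in both P1 libraries went from 4 to 2. The log2 ratio of Wdr72 turned from 2.31 to -0.23 between the stages in maxillary epithelium-like cells and from 3.31 to -0.17 for epithelium-like over mesenchyme-like cells, and that of Acp4 in the whole maxillary library from 2.24 to -0.40. With them kept in both, 1 gene in place of 0 was lower at P1 in mandibular mesenchyme-like cells.

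Thinning leaves fewer UMIs for the 50-UMI limit, and the share of all genes called was not counted at that depth. With cells thinned to 2000 UMIs, the genes higher in ameloblast-like cells went from 4 to 2 in the maxilla, and those lower from 1 to 0 in both jaws. Those lower in odontoblast/osteoblast-like cells went from 2 to 0 in both, those higher at P1 from 4 to 2 in maxillary and from 5 to 3 in mandibular epithelium-like cells and from 1 to 0 and 4 to 2 in the mesenchyme-like cells, those lower at P1 in maxillary mesenchyme-like cells from 1 to 0, those lower in the maxillary mesenchyme-like cells of P1 from 0 to 1, and those higher in the top enamel bin from 2 to 0 in the maxilla and from 2 to 1 in the mandible. For epithelium-like over mesenchyme-like cells, the genes higher and lower went from 1 and 2 to 0 and 1 at E15.5 in the maxilla, from 1 and 2 to 0 and 0 at E15.5 in the mandible and from 4 and 1 to 2 and 0 at P1 in the maxilla, and those lower at P1 in the mandible from 1 to 0. Wdr72 in mandibular odontoblast/osteoblast-like cells turned from -1.68 to 0.085 and Slc24a4 in E15.5 mandibular epithelium-like over mesenchyme-like cells from -3.28 to 1.03.

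Wdr72 was no longer called lower in maxillary ameloblast-like cells (from 1 gene to 0) with doublets kept, with the mean of cell values, with a minimum of 2000 UMIs and with resolution 0.5. Doublets kept also took the genes lower in mandibular odontoblast/osteoblast-like cells from 2 to 0, with Wdr72 turning from -1.68 to 1.66, and those lower in maxillary mesenchyme-like cells of P1 from 0 to 1, as did the mean of cell values, and those higher in E15.5 mandibular epithelium-like over mesenchyme-like cells from 1 to 2. The mean of cell values took the genes higher and lower at P1 in maxillary mesenchyme-like cells from 1 and 1 to 0 and 0. With resolution 0.5, Relt in maxillary ameloblast-like cells turned from 1.09 to -0.044 and 1 gene in place of 0 was lower at P1 in mandibular mesenchyme-like cells. A minimum of 2000 or of 500 UMIs took the genes higher in the top maxillary enamel bin from 2 to 1. Background subtraction took the genes higher at P1 in maxillary mesenchyme-like cells from 1 to 2. Of the alternatives chosen after seeing the data, leaving out the ameloblast-like and odontoblast/osteoblast-like classes, found at P1 only, took the genes higher at P1 from 5 to 2 in mandibular epithelium-like cells, from 1 to 0 in maxillary and from 4 to 2 in mandibular mesenchyme-like cells, and turned Relt in mandibular epithelium-like cells from 1.25 to -0.05241, subtraction of the erythroid level alone took those higher in mandibular mesenchyme-like cells from 4 to 2, and putting back the clusters led by markers of another class took the genes lower in mandibular odontoblast/osteoblast-like cells from 2 to 4.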

Other observations

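Some clusters not described above had high levels of the 7 genes, and they were chosen after their values were seen. In the P1 mandibular library, 301 unnamed cells led by Cyp26a1, Frem2 and Stmn2, which entered no comparison, had 40.5 CPM of Fam20c, 33.4 of Fam20a, 13.8 of Acp4, 11.2 of Wdr72 and 10.2 of Fam83h, and no UMI of Slc24a4. Another 304 unnamed cells, led by the tendon genes Tnmd, Kera and Fmod, had 14.03 CPM of Slc24a4 on 43 UMIs. Within the mesenchyme-like cells of that library, 22 cells led by Vtn and Asic2 had 52.6 CPM of Slc24a4 on 12 UMIs and 100.9 of Fam20c on 23 UMIs, and 83 cells led by Bmp3 and Ibsp had 36.1 CPM of Wdr72, all 28 UMIs of it in 2 cells. Among osteoclast-like cells, which resorb bone, Relt stood at 13.5 CPM in the E15.5 maxillary library (15 UMIs) and 10.8 in the E15.5 mandibular one.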
